A study of Mus musculus with 5 samples.

Results

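The genes described here are 43 of the 23284 symbols in each count table. They encode the machinery that brings secretory proteins into the endoplasmic reticulum (ER), folds them there and checks the result. The members are a list of symbols, so no measured value chose them, and each of the 43 symbols was present in each of the 5 tables. They were grouped by role into a translocon (7 genes), signal peptidase (5), N-glycosylation (4), chaperones (11), disulfide isomerases and oxidases (7), ER-associated degradation, ERAD (4), retrieval receptors (2) and stress sensors (3).

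RNA came from primary pancreatic acinar cells of C57BL/6 mice aged 8 weeks, in a design of 2 control and 3 knockout libraries. Control mice carried p48-Cre, a Cre recombinase under the p48 (Ptf1a) gene, which is active in pancreatic progenitors and acinar cells. Knockout mice carried the same p48-Cre together with both floxed alleles of Arid1a (Arid1afl/fl;p48-Cre), a subunit of the SWI/SNF chromatin remodelling complex, so both groups expressed Cre and only the knockout group had floxed Arid1a. The labels number the libraries but name no animal, so the spread between libraries may be partly or wholly technical. The cells had been digested out of minced pancreas and left for an hour in serum medium before lysis.

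Acinar cells make and secrete more protein than most cells, and their cytoplasm is packed with rough ER. A nascent enzyme passes through the Sec61 channel, loses its signal peptide, may receive N-linked glycans, and then folds with the help of BiP, lectin chaperones and disulfide isomerases. Proteins that fail to fold are sent back to the cytosol for degradation. When unfolded proteins accumulate, the sensors IRE1, PERK and ATF6 start the unfolded protein response, whose transcription factors ATF6 and XBP1 bind the ER stress response element (ERSE) in the promoters of many of these genes.

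Promoter sequences show which members hold the exact letters of that element, and the matches are printed here for comparison with the expression values further on. The element was searched as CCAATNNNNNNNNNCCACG, and its shorter variant ERSE-II as ATTGGNCCACG, on both strands and with N standing for any base. Near matches were not counted, so a promoter without a match may still hold a variant of the element. Windows ran from 250 bases before to 50 bases after the start of each gene in RefSeq, build GRCm38.p6, and 35 of the 43 members had one. One or the other element was present in 11 of these 35 members (31.4%) and in 0.155% of all 32851 windows. ERSE itself was found in 9 members and in 0.119% of all windows, and ERSE-II in 2 members and in 0.0365%. The 2 patterns never described the same bases in a member, and a match gives letters only, not binding. Each line shows the matched strand from 5′ to 3′ with 9 flanking bases on either side, and capitals mark the CCAAT or ATTGG box and the CCACG box.
Hspa5: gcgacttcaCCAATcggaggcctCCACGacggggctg
Hsp90b1, distal: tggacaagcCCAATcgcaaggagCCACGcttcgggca
Hsp90b1, proximal: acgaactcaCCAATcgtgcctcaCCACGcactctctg
Dnajc3: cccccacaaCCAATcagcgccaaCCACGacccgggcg
Creld2: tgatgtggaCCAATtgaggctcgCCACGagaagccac
Calr: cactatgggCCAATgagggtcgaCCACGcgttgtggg
Canx: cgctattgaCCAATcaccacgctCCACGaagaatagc
Pdia6: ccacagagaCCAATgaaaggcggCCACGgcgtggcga
Ero1lb: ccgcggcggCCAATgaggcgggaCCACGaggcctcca
Syvn1: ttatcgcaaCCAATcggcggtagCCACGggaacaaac
Herpud1, ERSE-II: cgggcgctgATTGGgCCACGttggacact
Dnajb11, ERSE-II: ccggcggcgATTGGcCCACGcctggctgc

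In the gene's own orientation, the ERSE of Hspa5 (chr2:34772025-34772043) began 65 bases before the start and that of Dnajc3 (chr14:118937827-118937845) 105 bases before it. The ERSE of Calr (chr8:84847075-84847093) lay on the opposite strand, and its most upstream base was 162 bases before the start. The ERSE-II of Herpud1 (chr8:94386377-94386387) began 52 bases before the start, and that of Dnajb11 (chr16:22857852-22857862) 7 bases after it. Those 5 genes are singled out because, as described below, each stood higher in every knockout library than in both controls. The choice thus follows the outcome. In the other 6 members with an element the groups overlapped, and 4 members whose window held neither element were also higher in every knockout library. For contrast, the 250 bases before the start of Hspa5, the gene of BiP (chr2:34771840-34772089, plus strand, ERSE in capitals), and of Pdia2, the most abundant member (chr17:26199088-26199337, minus strand), which held neither element, are given.
Hspa5: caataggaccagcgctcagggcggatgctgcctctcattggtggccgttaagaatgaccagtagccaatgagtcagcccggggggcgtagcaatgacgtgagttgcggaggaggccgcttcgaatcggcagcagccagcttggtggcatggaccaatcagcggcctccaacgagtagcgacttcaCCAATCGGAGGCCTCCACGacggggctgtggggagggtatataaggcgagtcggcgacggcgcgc
Pdia2: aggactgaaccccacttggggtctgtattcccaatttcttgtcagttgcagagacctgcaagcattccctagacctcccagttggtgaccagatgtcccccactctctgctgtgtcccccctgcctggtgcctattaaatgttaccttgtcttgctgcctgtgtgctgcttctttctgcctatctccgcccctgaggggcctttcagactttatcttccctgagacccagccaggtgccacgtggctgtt

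**Figure D1:**
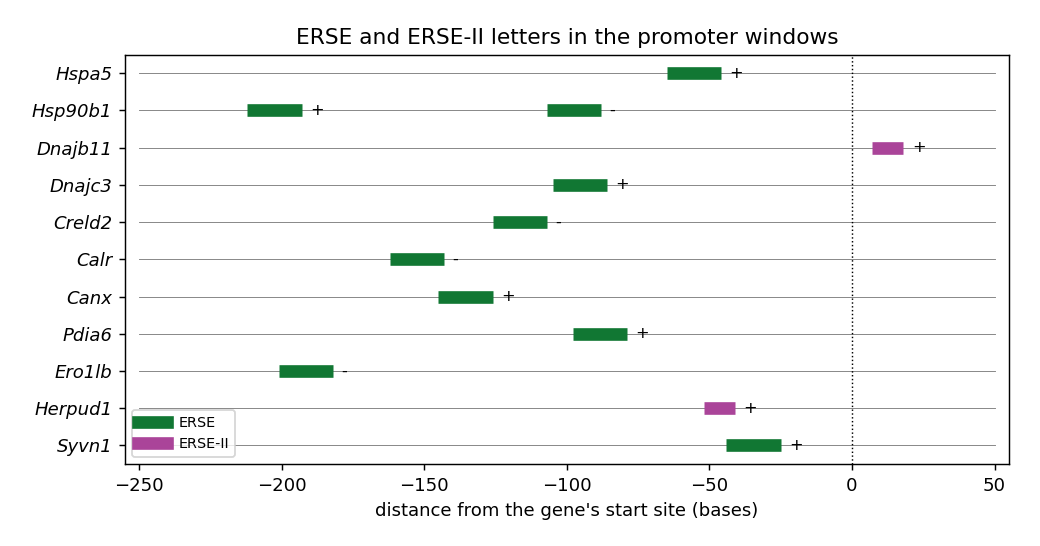
Position of the ERSE and ERSE-II letters in the promoter windows of the 11 members that held one, in bases from the start site of each gene, with the strand of the match beside it. In 10 of the genes every match lies before the start site, and the ERSE-II of Dnajb11 begins 7 bases after it.

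The 2 groups differed sharply in depth, which bounds every comparison that follows. Total counts were 291677 and 589798 in the controls and between 3471701 and 4049215 in the knockouts. Precursor ribosomal RNA (Rn45s) made up 72.6% and 82.2% of counts in control libraries but 6.78% to 10.9% in knockout libraries, and Lars2 4.23% and 5.61% against at most 0.926%. Without Rn45s and Lars2, 67514 and 72006 counts were left per control library, against 3155357, 3568906 and 3345121 per knockout library, and CPM, the depth-scaled unit used throughout, sets each count against these totals. A single count was therefore worth 14.8 and 13.9 CPM in the controls against at most 0.317 CPM in a knockout library. In the 2 controls together, 25 of the 43 members had fewer than 10 counts, and 4 had none (Sec61g, Spcs1, Dad1 and Dnajb11). Depth, the share of Rn45s and genotype separate the libraries in the same way and cannot be told apart. Arid1a itself had 0 and 3 control counts against 44, 121 and 42 knockout counts, a ratio of pooled CPM of 0.956 (exact 95% interval 0.323 to 4.67). That count covers the whole gene, also outside any deleted part, and does not check the genotype. The acinar identity of the RNA was plain: 24 acinar marker genes summed to 622197 and 658306 CPM in the controls against 590466 to 792607 CPM in the knockouts.

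The comparison of knockout with control asks which acinar transcripts depend on Arid1a, and among the 43 ER genes none passed the test. The edgeR quasi-likelihood test covered 8291 genes. At a Benjamini-Hochberg adjusted p under 0.05 it called 0.193% of them higher and 1.6% lower in the knockout. Of the 23 acinar markers tested, 0 were called higher and 3 lower: Cela2a (adjusted p = 7.53e-05), Cel (0.0055) and Sycn (0.0326). Cela2a stood at 41814 and 62814 CPM in the controls against 7869, 9560 and 9341 CPM in the knockouts. Of the 41 members tested, 0 were called in either direction, with adjusted p-values from 0.213 to 0.998, while limma-voom called 0 and DESeq2 called 11 higher (18.3% of all genes to which it gave an adjusted p), as described at the end. On counts simulated with the common dispersion for every gene, the same test called none of the genes that had been changed. The real counts differ from that setting, since the test did call genes there, so the simulation does not give the power for a single gene. A missing call does not show that a member did not change. At an unadjusted p under 0.05 stood 5 members (Spcs1, Dad1, Hspa5, Dnajb11 and Herpud1, all higher), or 12.2% of those tested against 12.9% of all tested genes. Of the 5, all but Hspa5 had a control without counts and passed the filter on low counts through the knockouts alone. The fitted log2 fold changes had a median of 0.17 over the members and 0.22 over all tested genes. With groups that had no count set to the floor of 3 counts, the median log2 ratio of CPM was 0.17 over the members and -1.14 over all tested genes. Of the latter, 2775 had no control count, as had 3 of the members. Sec61g and Ern1 had too few counts to be tested.

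In 11 members every knockout library stood above both controls (26.8% of those tested, against 35.6% of all tested genes). In 6 members every knockout library stood below both (14.6%, against 11.2%), and in 24 the groups overlapped. The first share was under that of all tested genes and the second near it. These shares are not matched on control counts: 2775 of the 8291 tested genes had none, against 3 of the 41 members. A gene without a control count stands above both controls whenever every knockout library has a count. The lower first share therefore does not show that members were higher less often than other genes. Because the filter on low counts asked for 3.17 CPM in 2 libraries, 15 members passed it through the knockouts alone. The ratio of pooled counts has an exact 95% interval that covers counting error only. That interval lay above 1 for 12 members and below 1 for 7, and included 1 for 24. The same count was not made over all tested genes, so it sets these members apart from no other genes.

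**Figure D2:**
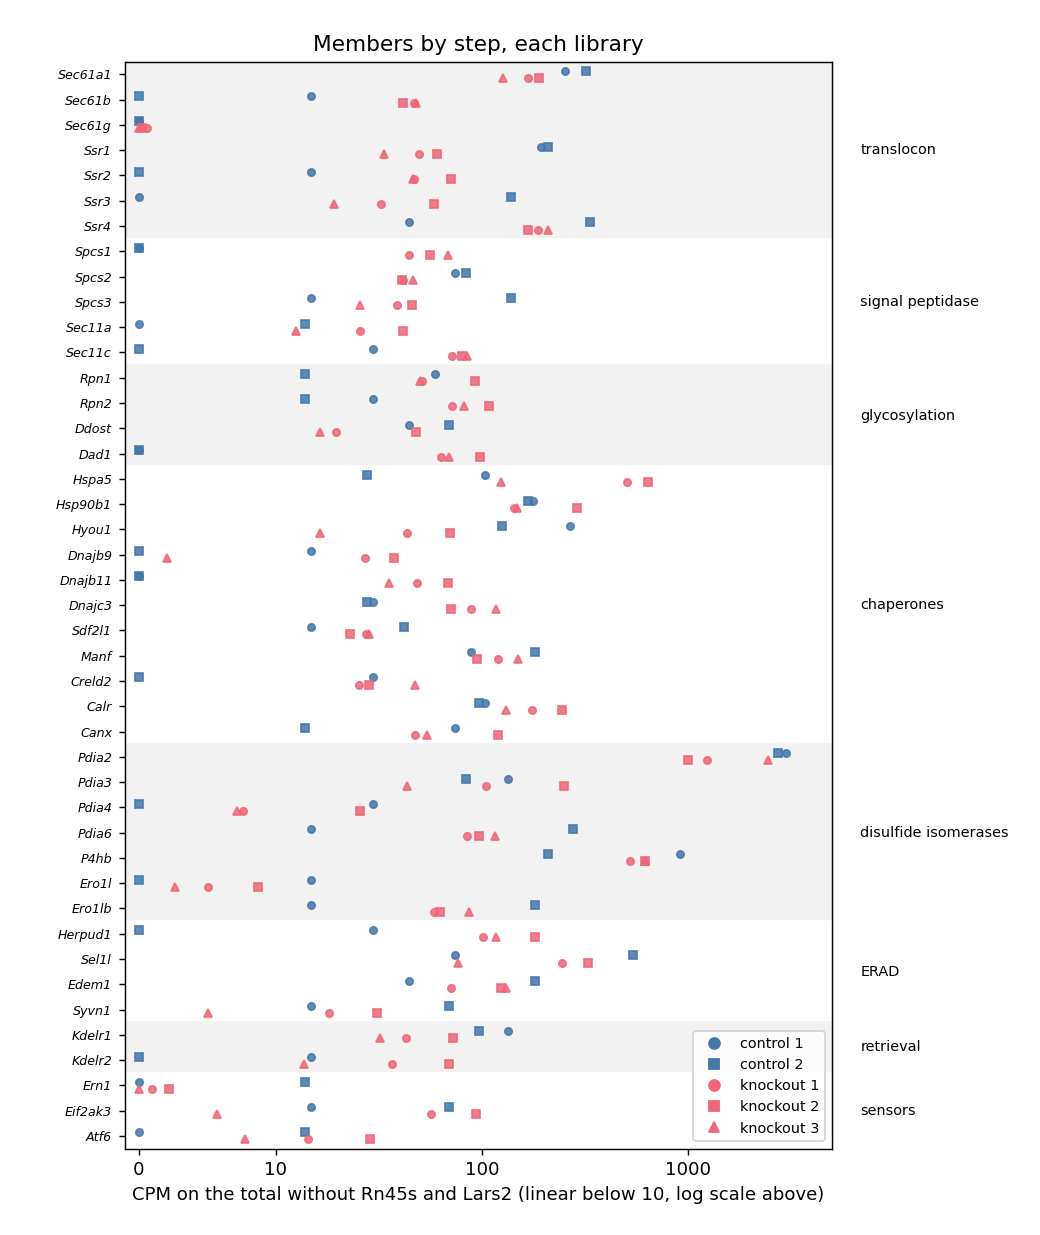
CPM of each of the 43 members in every library, on a scale that is linear below 10 and logarithmic above it, grouped by role. Blue symbols are the 2 controls and red symbols the 3 knockouts. Pdia2 lies far to the right of every other member, and many control points sit at 0 or at the value of a single count.

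Added over all members, the RNA was 6132 and 6486 CPM in the controls against 4809, 5879 and 5500 CPM in the knockouts. Each knockout sum lay below both controls, with a pooled ratio of 0.858 (exact 95% interval 0.803 to 0.918). A single gene accounted for much of that sum: Pdia2 made up 49.0% and 42.2% of the members' counts in the controls but 25.6%, 17% and 44.5% in the knockouts. Without Pdia2 the sum was 3125 and 3750 CPM in the controls against 3578, 4880 and 3053 CPM in the knockouts, so the groups overlapped, and the pooled ratio was 1.12 (1.02 to 1.23). The direction of the total turned with Pdia2 and also with the denominator. With Pdia2 counted, the log2 ratio of the summed CPM was -0.23, but 0.52 with digestive enzymes left out of the totals and 2.14 with Rn45s and Lars2 kept in them.

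**Figure D3:**
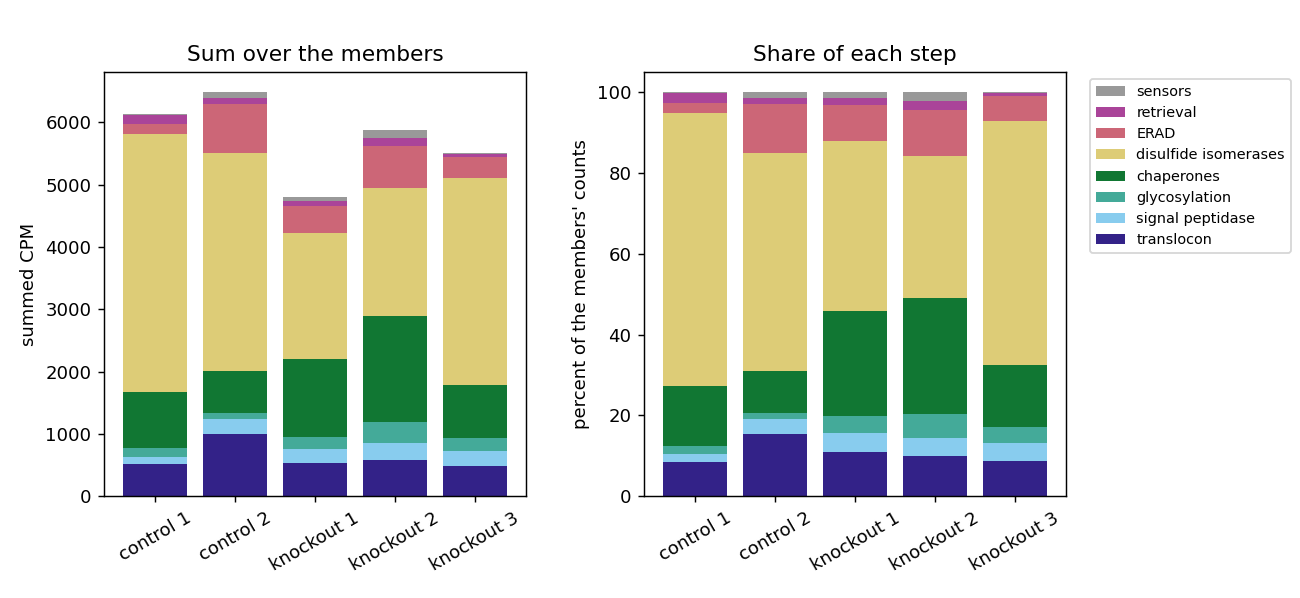
Summed CPM of the members in each library (left) and the percent of the members' counts in each role (right), with the roles stacked in the same order. Disulfide isomerases fill 67.4% and 53.7% of the control bars and 41.9%, 35.0% and 60.4% of the knockout bars, and chaperones 14.7% and 10.5% against 26.0%, 28.7% and 15.5%.

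The translocon showed members on both sides of the controls. Sec61a1 encodes the pore-forming subunit of the channel. It stood at 252 and 319 CPM in the controls against 168, 189 and 127 CPM in the knockouts, a pooled ratio of 0.565 (0.413 to 0.793). Every knockout library was below both controls, yet edgeR's log2 fold change was -0.82 ± 1.05 (SE; adjusted p = 0.656). Its sign turned under TMM, RLE and DESeq2 scaling, to between 0.73 and 1.17. Sec61b, a small subunit of the channel complex, had 1 count in one control and 0 in the other, against 46.6, 41.5 and 47.8 CPM in the knockouts. Its pooled ratio was 6.30 with an interval of 1.13 to 250. Sec61g, the remaining subunit, had 0 counts in both controls and 2, 1 and 0 counts in the knockouts.

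The 4 genes of the translocon-associated protein complex, which helps some signal sequences enter the channel, also diverged. Ssr1 stood at 193 and 208 CPM in the controls against 49.8, 60.2 and 33.5 CPM in the knockouts. The groups lay far apart for this gene, at a pooled ratio of 0.240 (0.164 to 0.364). The edgeR log2 fold change was -2.07 ± 1.16 (adjusted p = 0.456), and it stayed negative in every alternative that was run, between -2.27 and -0.13. Ssr2 went the other way, with 14.8 and 0 CPM in the controls against 46.6, 70.6 and 46.3 CPM in the knockouts (pooled ratio 7.68, 1.37 to 304). Ssr4 had 44.4 and 333 CPM in the controls against 187, 167 and 210 CPM in the knockouts, so the controls enclosed the knockouts. Ssr3 overlapped too, at 0 and 139 CPM against 19.1 to 58.8 CPM. The translocon together summed to 518 and 1000 CPM in the controls against 530, 588 and 483 CPM in the knockouts, and the groups overlapped. Its log2 ratio of mean sums was -0.51, and 0.04 without control 2.

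Signal peptidase cuts the signal sequence from the entering chain. Spcs1, an accessory subunit, had no count in either control and 44.4, 56.0 and 68.2 CPM in the knockouts. The mean of the knockouts was 2.61-fold the floor of 3 counts over both controls (21.5 CPM), and the exact interval of the ratio began at 2.13. Its adjusted p in edgeR was 0.306. Sec11c, one of the alternative catalytic subunits, stood at 29.6 and 0 CPM in the controls against 71.9, 80.4 and 84.3 CPM in the knockouts (pooled ratio 5.51, 1.52 to 45.6). The other catalytic subunit, Sec11a, had 0 and 13.9 CPM against 25.7, 41.2 and 12.6 CPM, and the groups overlapped. Spcs2 was lower in every knockout library, with 74.1 and 83.3 CPM in the controls against 41.5, 40.9 and 46.0 CPM in the knockouts. Its interval, 0.300 to 1.10, included 1, and the sign of its edgeR log2 fold change (-0.88 ± 1.34) turned under TMM, RLE and DESeq2 scaling. Spcs3 overlapped at 14.8 and 139 CPM against 25.7 to 46.0 CPM.

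The oligosaccharyltransferase attaches N-linked glycans to the chain. Together its 4 genes gave 133 and 97.2 CPM in the controls against 206, 347 and 217 CPM in the knockouts, and every knockout library was above both controls. The pooled ratio of 2.26 (1.39 to 3.97) rested on few control reads, 16 in all. Dad1, a small core subunit, had no control count and 63.1, 98.1 and 69.4 CPM in the knockouts. Their mean was 3.57-fold the same floor, and the exact interval of the ratio began at 2.93. Dad1 had the lowest adjusted p of all members, 0.213 in edgeR, but it passed the filter on low counts through the knockouts alone. Rpn2 stood at 29.6 and 13.9 CPM in the controls against 71.9, 108 and 81.6 CPM in the knockouts (pooled ratio 4.09, 1.39 to 19.9). Rpn1, at 59.2 and 13.9 CPM against 51.3, 93.0 and 49.9 CPM, and Ddost, at 44.4 and 69.4 CPM against 19.6, 47.6 and 16.4 CPM, overlapped and had ratios on opposite sides of 1.

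Among the chaperones the widest contrast was between Hspa5 and Hyou1. Hspa5 encodes BiP, the central Hsp70 chaperone of the ER, and the Hyou1 product is a large Hsp70-related protein that recharges BiP with ATP. Hspa5 stood at 104 and 27.8 CPM in the controls against 504, 642 and 123 CPM in the knockouts. Knockouts 1 and 2 were far above both controls, and knockout 3 was just above control 1. The pooled ratio was 6.61 (3.48 to 14.5), and edgeR gave a log2 fold change of 2.69 ± 1.18 (adjusted p = 0.267). It was positive under every alternative, from 2.03 without control 2 to 4.35 with TMM factors. Hyou1 stood at 267 and 125 CPM in the controls against 43.4, 70.0 and 16.4 CPM in the knockouts, with no overlap. Its pooled ratio was 0.227 (0.154 to 0.348), with an edgeR log2 fold change of -2.17 ± 1.17 (adjusted p = 0.429), and it was negative under every alternative, from -2.71 to -0.49.

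A ratio of 2 genes within a library does not depend on how libraries are scaled. For Hspa5 over Hyou1 it was 0.389 and 0.222 in control libraries and 11.6, 9.17 and 7.51 in knockout libraries. For Hspa5 over Hsp90b1, another major chaperone of the ER lumen, it was 0.583 and 0.167 in control libraries and 3.50, 2.21 and 0.833 in knockout libraries. Hspa5 thus took a greater part relative to either gene in every knockout library than in both controls. For Hyou1 this follows from the CPM above, where Hspa5 was higher and Hyou1 lower in every knockout library, so it adds no separate support. The control ratios rest on few counts: 7 and 2 of Hspa5, 18 and 9 of Hyou1, and 12 and 12 of Hsp90b1. Hsp90b1 itself overlapped between groups, at 178 and 167 CPM against 144, 290 and 148 CPM, with a pooled ratio of 1.15 (0.768 to 1.79).

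The J-domain partners of BiP were sparse in the controls. Dnajb11 had no control count and 48.5, 68.6 and 35.3 CPM in the knockouts. Their mean was 2.36-fold the same floor, and the exact interval of the ratio began at 1.93. Dnajc3 stood at 29.6 and 27.8 CPM in the controls, or 4 counts, against 88.7, 70.9 and 117 CPM in the knockouts, a pooled ratio of 3.21 (1.25 to 11.8). Dnajb9 had 14.8 and 0 CPM against 26.9, 37.5 and 2.09 CPM, and the groups overlapped because of knockout 3. Of the lectin chaperones, which hold glycoproteins during folding, Calr stood at 104 and 97.2 CPM in the controls against 174, 244 and 132 CPM in the knockouts. Every knockout library exceeded both controls, at a pooled ratio of 1.84 (1.09 to 3.38). Canx, its membrane-bound relative, overlapped at 74.1 and 13.9 CPM against 47.5, 120 and 54.4 CPM.

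The other stress-inducible chaperone genes showed no separation of the groups. Manf, which encodes a small secreted protein of the ER, had 88.9 and 181 CPM in the controls against 95 to 149 CPM in the knockouts (pooled ratio 0.887, 0.565 to 1.48). Sdf2l1, a partner of Dnajb11 in the BiP cycle, had 14.8 and 41.7 CPM against 23.0 to 28.4 CPM, and Creld2 had 29.6 and 0 CPM against 25.4 to 47.5 CPM. Summed over the 11 chaperones, the controls held 904 and 681 CPM and the knockouts 1250, 1690 and 854 CPM, with a pooled ratio of 1.62 (1.34 to 1.97). Knockout 3 lay below control 1, so the groups overlapped.

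**Figure D4:**
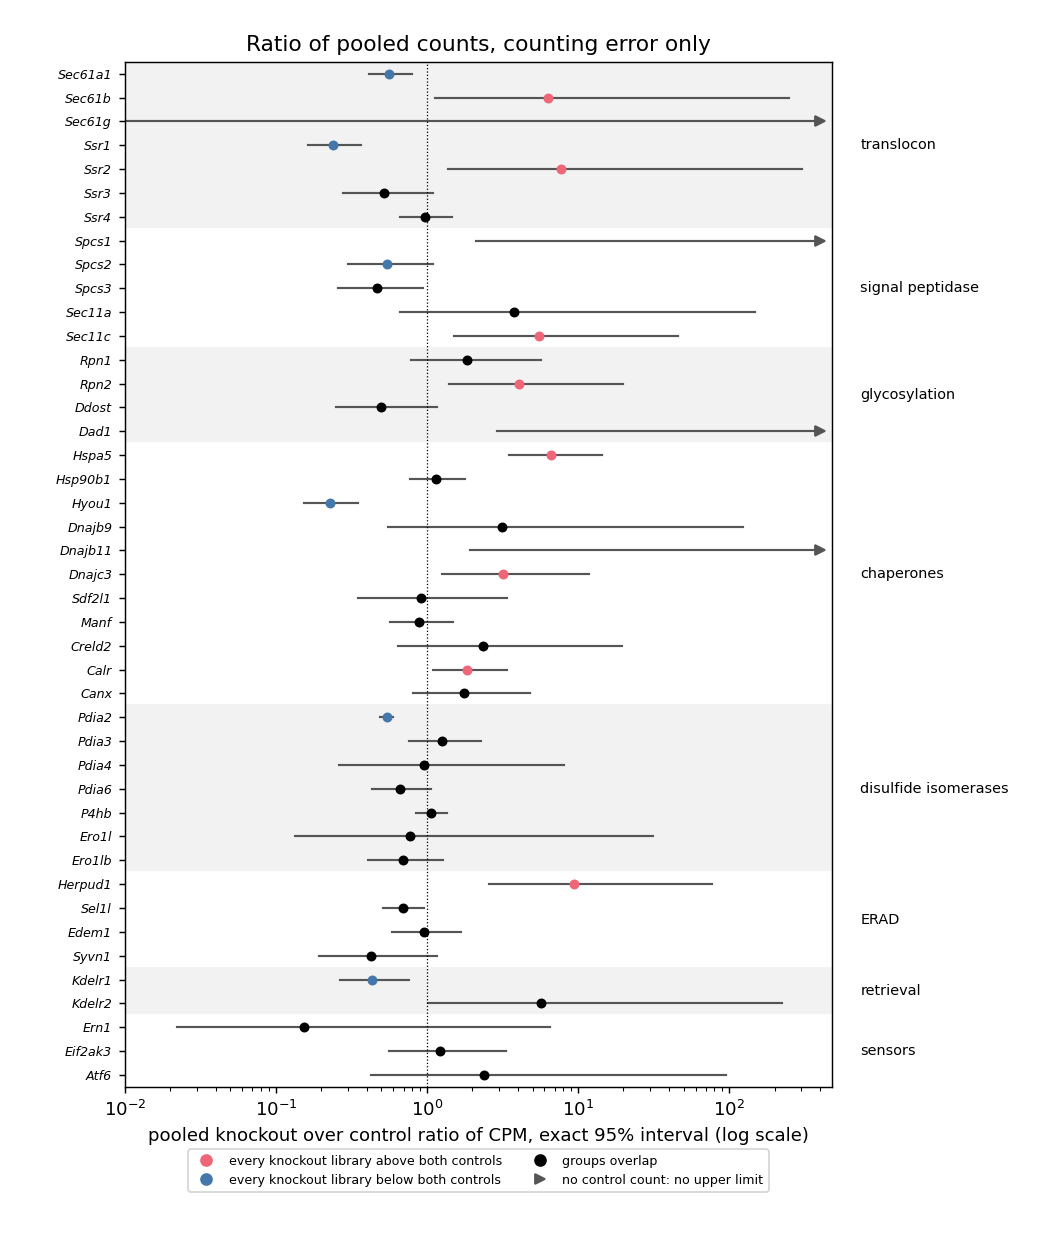
Ratio of pooled CPM, knockout over control, for each member on a log scale, with exact 95% intervals that cover counting error only; red and blue mark members in which every knockout library was above or below both controls, and arrows mark the 4 members without a control count, which have no point. Intervals are narrow for Pdia2 (0.490 to 0.600) and span more than a decade for members with 1 or 2 control counts.

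Disulfide isomerases form and reshuffle the disulfide bonds that most digestive enzymes need. Pdia2, the isomerase enriched in the pancreas, stood at 3007 and 2736 CPM in the controls against 1231, 999 and 2447 CPM in the knockouts. Every knockout library was below both controls, but knockout 3 came near control 2. The pooled ratio was 0.542 (0.490 to 0.600), the tightest of all members, since the controls held 400 counts of it. Even so edgeR gave a log2 fold change of -0.88 ± 0.72 (adjusted p = 0.582). The sign turned under TMM, RLE and DESeq2 scaling (1.12 to 1.52) and, barely, with library sizes that leave out the digestive enzymes (0.085), so no direction holds over the scalings.

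P4hb, the general protein disulfide isomerase, was the next most abundant of this role, with 918 and 208 CPM in the controls against 524, 617 and 617 CPM in the knockouts. Its controls differed by more than its groups, and the pooled ratio was 1.07 (0.851 to 1.35). Pdia3, which works with the lectin chaperones, had 133 and 83.3 CPM against 104, 250 and 43.3 CPM. Pdia6 had 14.8 and 278 CPM against 84.6, 97.2 and 116 CPM, and Pdia4 29.6 and 0 CPM against 7.61, 25.5 and 7.17 CPM. The oxidases that recharge the isomerases differed in level: Ero1lb, the form enriched in the pancreas, had 14.8 and 181 CPM against 58.6, 62.5 and 86.4 CPM. Ero1l, the widely expressed form, had 14.8 and 0 CPM against 5.07, 8.69 and 2.69 CPM. All of these overlapped between groups, and without Pdia2 the role summed to 1126 and 750 CPM in the controls against 784, 1061 and 872 CPM in the knockouts (pooled ratio 0.978, 0.823 to 1.17).

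Per kilobase of transcript, levels can be compared between genes. By group means, Pdia2 was the most abundant member in both groups, at 1668 CPM per kilobase in the controls and 906 in the knockouts. Ssr4 (247 and 245) and P4hb (197 and 205) followed in both groups. The fourth place was held by Sec61a1 in the controls (90.04 CPM per kilobase) and by Hspa5 in the knockouts (162), which stood at 25.2 CPM per kilobase in the controls. These places need not hold in single libraries. Ssr4 had 44.4 and 333 CPM in the controls, and Hspa5 had 504, 642 and 123 CPM in the knockouts.

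In the degradation pathway, Herpud1 was the member that separated the groups. Its product is a membrane protein that assembles the degradation complex and is induced by ER stress. It stood at 29.6 and 0 CPM in the controls against 101, 181 and 117 CPM in the knockouts. The pooled ratio of 9.38 had a wide interval, 2.59 to 77.5, because the controls held 2 counts. The edgeR log2 fold change was 3.19 ± 1.57 (adjusted p = 0.361). The other 3 genes overlapped. Sel1l and Syvn1 encode the scaffold and the ubiquitin ligase of the same complex. Sel1l had 74.1 and 542 CPM against 245, 328 and 76.5 CPM, and Syvn1 14.8 and 69.4 CPM against 18.1, 30.8 and 5.08 CPM. Edem1, which selects misfolded glycoproteins, had 44.4 and 181 CPM against 71.0, 124 and 132 CPM. Summed over the 4 genes, the 2 controls stood at 163 and 792 CPM, and the knockouts at 435, 664 and 330 CPM lay between them.

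The KDEL receptors return escaped chaperones from the Golgi. Kdelr1 stood at 133 and 97.2 CPM in the controls against 42.8, 72.3 and 32.0 CPM in the knockouts, with no overlap and a pooled ratio of 0.433 (0.264 to 0.763). The sign of its edgeR log2 fold change, -1.23 ± 1.25 (adjusted p = 0.604), turned under TMM, RLE and DESeq2 scaling. Kdelr2 had 14.8 and 0 CPM against 36.4, 69.5 and 13.8 CPM, with overlap, and its interval of 1.01 to 224 rested on 1 control count.

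The stress sensors were the least abundant role, and 8 control counts were shared by the 3 genes. Eif2ak3, the gene of PERK, had 14.8 and 69.4 CPM in the controls against 56.4, 93.3 and 5.68 CPM in the knockouts. Atf6 had 0 and 13.9 CPM against 14.3, 28.6 and 7.77 CPM. Ern1, the gene of IRE1, had 0 and 13.9 CPM against 0.951, 2.24 and 0 CPM. A difference between the groups was not detectable at this depth for any of the 3.

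Set beside the promoter letters, the 11 members with ERSE or ERSE-II held 5 in which every knockout library was above both controls (Hspa5, Dnajb11, Dnajc3, Calr and Herpud1), 0 in which every one was below, and 6 with overlap. The 24 members whose window held neither element had 4, 4 and 16 in the same classes. The 8 members without a window (Sec61a1, Ssr2, Spcs3, Sec11c, Hyou1, Manf, Kdelr2 and Atf6) had 2, 2 and 4. Over all tested genes the shares were 35.6% above and 11.2% below. Among the members above both controls, Dnajb11 and Herpud1 with an element passed the filter on low counts through the knockouts alone. So did Sec61b, Spcs1 and Dad1, whose windows held neither element. Their class leans on the difference in depth, so nothing about the element is read from these classes. These counts describe 43 genes and were not tested. Transcript length also differed between the classes: the median was 1927 bases for the 11 members with higher knockout libraries and 3041 bases for the 6 with lower ones, against 2247 and 4096 bases over all tested genes. Across 38 members with counts in both groups, the log2 ratio of CPM had Pearson's r = -0.426 and Spearman's rho = -0.352 with log2 length, and across 5445 tested genes r = -0.297 and rho = -0.293. The points share the same 5 libraries, and the part of length in these ratios was not tested.

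The 3 knockout libraries differed widely among themselves in these genes. Between the highest and the lowest knockout library the CPM of Dnajb9 differed 17.9-fold, that of Eif2ak3 16.4-fold, Syvn1 6.06-fold, Pdia3 5.77-fold and Hspa5 5.20-fold. In all of these knockout 2 was highest and knockout 3 lowest. Pdia2 ran the other way, 2.45-fold higher in knockout 3 than in knockout 2. The sizes depended on the denominator: with digestive enzymes left out of the totals they were 7.78-fold for Dnajb9, 6.37-fold for Eif2ak3, 2.35-fold for Syvn1, 2.24-fold for Pdia3, 2.47-fold for Hspa5 and 6.32-fold for Pdia2. Knockout 3 was still lowest for the first 5 and highest for Pdia2, while knockout 1 was then highest for Hspa5 and Dnajb9. Within a library, Hspa5 over Pdia2 was 0.0345 and 0.0102 in control libraries and 0.409, 0.643 and 0.0505 in knockout libraries, so knockout 3 stood nearer to the controls than to the other knockouts.

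Against the rest of the transcriptome, knockout 3 was lowest for 22 of the 41 tested members (53.7%) and for 81.4% of all tested genes with a knockout count. It was highest for 14 members (34.2%) and for 4.98% of all genes. With the digestive enzymes also left out of the total, knockout 3 was highest for 27 members (65.9%) and for 24.8% of all genes. The 42 enzyme and granule genes took 79.7%, 68.4% and 87.7% of the counts of knockouts 1 to 3 and 66.6% and 70.7% in the controls. Knockout 2 was highest for 27 members (65.9%, against 90.1% of all tested genes) and, with the enzymes left out, for 11 (26.8%, against 56.0%). It held the highest sums of duct markers (1179 CPM, against 375 and 272 CPM in knockouts 1 and 3), islet markers (985, against 180 and 220 CPM) and macrophage markers (261, against 67.2 and 21.5 CPM). In the controls those sums were 770 and 653 CPM for duct, 104 and 708 CPM for islet and 59.2 and 208 CPM for macrophage markers. The 8 endothelial markers had 0 counts in both controls and summed to 153, 200 and 38.6 CPM in the knockouts. T and B cell markers summed to 311 and 125 CPM in the controls against to 15.8, 81.5 and 16.1 CPM in the knockouts, and stromal markers to 267 and 306 CPM and to 91.0, 223 and 35.6 CPM. The red blood cell genes had 0 counts in all 5 libraries. The part of these cells in the members' values was not tested, and in bulk RNA fewer cells of a type and less RNA per cell cannot be told apart.

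**Figure D5:**
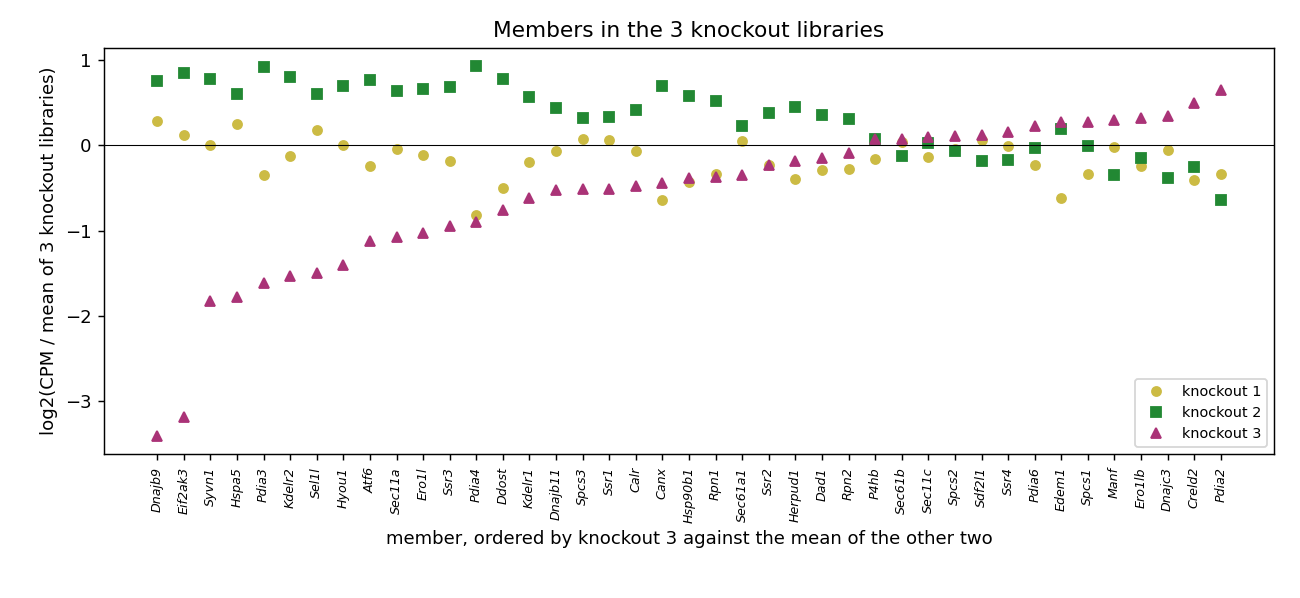
Log2 of each knockout library's CPM over the mean of the 3 knockout libraries, for the 41 tested members, ordered by knockout 3. Green squares (knockout 2) lie above 0 for most members and purple triangles (knockout 3) below 0, down to Dnajb9 and Eif2ak3 at the left, while Pdia2 at the right has the reverse order.

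The wider pathway, 150 further genes of these processes in 6 lists, was tested in the same way. Of the 137 that were tested, 0 were called higher and 0 lower, and 8 (5.84%) had an unadjusted p under 0.05, against 12.9% of all tested genes. DESeq2 called 30 of them higher and 0 lower, with no adjusted p for 34, where 18.3% of all genes with an adjusted p were called higher, and limma-voom called 0. In targeting and translocation, Tram1, which assists chains at the channel, stood at 459 and 361 CPM in the controls against 97.3, 108 and 121 CPM in the knockouts (log2 fold change -1.91 ± 1.03, adjusted p = 0.431). Sec62, another channel partner, had 355 and 125 CPM against 81.8, 123 and 149 CPM, and Srpr, the receptor of the signal recognition particle, 0 and 181 CPM against 58.9, 79.6 and 13.2 CPM. Tram1, like Ssr1 and Sec61a1, was lower in every knockout library than in both controls. Other genes went the other way: of the 16 tested genes of this list, 1 (Tram1 itself) was lower in every knockout library and 6 were higher. Over all tested genes those shares were 11.2% and 35.6%. The translocon members had 2 on each side.

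The 3 most abundant genes of glycosylation and glycan trimming, Krtcap2, Magt1 and Ganab, had log2 fold changes from -1.26 to -0.50, none of which passed. Of the 19 tested genes of that list, 4 had every knockout library above both controls and 1 below, against 35.6% and 11.2% of all tested genes. Among other lumenal folding genes Erp27, a pancreas-enriched relative of the isomerases, had 1185 and 680 CPM in the controls against 456, 286 and 923 CPM in the knockouts, in the order of the knockout libraries seen for Pdia2. Selm, a selenoprotein of the ER, had 296 and 181 CPM against 27.9, 34.2 and 87.0 CPM, and Qsox1, a sulfhydryl oxidase, 252 and 208 CPM against 38.7, 77.3 and 40.7 CPM. For both genes every knockout library was lower than both controls, with adjusted p-values of 0.376 and 0.419 in edgeR. They were the only 2 of the 28 tested genes of this list on that side. In 12 of the 28 every knockout library was higher than both controls, where the share over all tested genes was 35.6%. Of the other degradation genes, Os9, Edem2 and Aup1 lay within a log2 fold change of -0.85 to 0.28.

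Of the stress response factors, Atf3, a factor induced by the integrated stress response, had 74.1 and 153 CPM in the controls against 370, 927 and 23.6 CPM in the knockouts. The order of the knockout libraries was that of Hspa5, which is also the order of most tested genes. Xbp1, which drives ER expansion in secretory cells, had 44.4 and 153 CPM against 231, 293 and 78.3 CPM. Both overlapped between groups because of knockout 3 (adjusted p = 0.456 and 0.627 in edgeR), and Tmbim6, a membrane protein that restrains IRE1, overlapped too. In transport from ER to Golgi, the cargo receptor gene Tmed3 had 163 and 41.7 CPM against 224, 210 and 337 CPM. The coat subunit gene Cope had 178 and 139 CPM against 77.3, 96.7 and 86.1 CPM, and Arf4 had 148 and 41.7 CPM against 49.4, 93.0 and 11.4 CPM. None of the 3 passed the test.

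How many members were called depended on the tool and on the scaling. DESeq2 with its own size factors called 11 of the 41 tested members higher and 0 lower. They were the same 11 whose knockout libraries all lay above both controls, and 18.3% of the genes with an adjusted p were called higher by that tool. Its adjusted p for Hspa5 was 0.000195 and its log2 fold change 3.91. With TMM factors computed without Rn45s and Lars2, edgeR called 3 members higher (Spcs1, Dad1 and Dnajb11, each without a control count), against 1.77% of all tested genes. These scalings moved the median of all tested genes from 0.22 to 1.42 and 1.93 on the log2 scale, and that of the members from 0.17 to 1.68 and 2.13. limma-voom called 0 members, with 3 at an unadjusted p under 0.05. The split of called genes moved as well, from 16 higher and 133 lower to 753 and 310 in DESeq2 and to 147 and 71 with TMM.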

How the data were processed

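The deposited files hold raw counts per gene symbol, as whole numbers and without normalization, from poly(A) libraries of a kit that does not mark strand, per the labels' protocols. Build mm9 and the tools HTSeq 0.9.1, Cuffdiff 2.2.1.5, TopHat2 2.1.1 and Cuffnorm 2.2.1.2 are listed, with no role, per the submitters' processing notes; the annotation is not given in the sources used here, so reads of overlapping, antisense or near-identical genes cannot be assigned with certainty. Files and labels gave the groups. Members, lists and tests were chosen with earlier results of these data known. All 43 members could be named. Pathway lists were named by their 3 most abundant genes and any called gene, and marker lists were given as sums with any called gene. The pathway and marker lists were written for this work.

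CPM used totals without Rn45s and Lars2, and edgeR 4.0.16 (R 4.3.3) used those totals as library sizes with no further factor, after filterByExpr, with group as the only term, two-sided. Ratios of pooled counts have exact binomial intervals. A floor of 3 counts was used for empty groups. Tested on simulated data with the common dispersion of these libraries given to every gene, the test called none of the changed genes, the largest changes included. With a small dispersion it recovered many of them. Lengths came from GENCODE M21 principal transcripts, promoters from RefSeq, both of build GRCm38, matched by symbol. Alternatives were other scalings and filters, DESeq2 1.42.0, limma-voom (limma 3.58.1), a replicate block and each library left out. Deviations of same-numbered libraries from their group means had correlations of -0.0076 and 0.044 over 8291 genes. With 2 controls, the deviations of one mirror those of the other, so this check cannot decide whether libraries were paired. Depth ran from 67514 to 3568906 counts, so 1 control count decides values up to 14.8 CPM.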

Additional observations from a re-analysis of the deposited data

How the results depend on the processing

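Of 216 recalculations of the 14 members whose groups did not overlap and that had control counts, 191 kept direction and side of the threshold, 8 passed it in addition (all under DESeq2) and 17 turned sign. Leaving out a single library could not turn a sign here, because the groups of these members did not overlap. Other filters kept the scaling and left the fold changes almost unchanged. Both kinds are among the 191 and do not check direction, which only the other scalings and tools do. The turned log2 fold changes, with TMM on all counts, TMM without Rn45s and Lars2, RLE and DESeq2 in that order, were 1.13, 1.17, 0.73 and 0.73 for Sec61a1, 1.23, 1.27, 0.85 and 0.85 for Spcs2, 1.47, 1.52, 1.12 and 1.12 for Pdia2, and 0.58, 0.63, 0.19 and 0.19 for Kdelr1; without digestive enzymes in the library sizes Pdia2 was at 0.085. The median of all genes moved by 1.82, 1.70, 1.26 and 1.19 under those 4 scalings, by 0.11 with upper quartile factors, by 0.49 without enzymes and by -1.04 in limma-voom.

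Against 16 genes called higher and 133 lower, TMM on all counts gave 5 and 27, TMM without both genes 147 and 71, DESeq2 753 and 310, library sizes without enzymes 25 higher, and limma-voom 0 higher (800 genes in either direction at an unadjusted p under 0.05). The number called lower was 81 with RLE, 354 with upper quartile factors, 898 without a filter, 388 at 1 CPM in 2 libraries and 26 at a mean of 100 CPM, where fewer genes were tested. Leaving out 1 library gave 0 to 19 higher and 4 to 378 lower; without knockout 1 there were 0 and 4. Members called were 3 and 11 higher with TMM without both genes and DESeq2, and 0 in every other alternative; the cause was not tested. The replicate block gave 4 higher, 5 lower and 0 members. The labels do not say that equal numbers mark shared animals or batches.

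With Rn45s and Lars2 in the denominator the log2 ratio of summed CPM was 2.00 for the translocon, 2.96 for signal peptidase, 3.44 for glycosylation, 2.96 for chaperones, 1.70 for disulfide isomerases, 2.67 for ERAD, 1.79 for retrieval, 3.03 for sensors and 2.14 for all members, against -0.51, 0.44, 1.15, 0.68, -0.63, -0.00, -0.46, 0.32 and -0.23. Without digestive enzymes it was 0.18 for the translocon, 1.15 for signal peptidase, 1.82 for glycosylation, 1.29 for chaperones, 0.26 for disulfide isomerases and 0.52 for all members. Without control 2 it was 0.04 for the translocon, 1.02 for signal peptidase, 1.55 for ERAD and 2.24 for sensors, and without control 1 it was -0.91, 0.03, -0.73 and -0.48. Depth limits all of this: the controls held 881 counts of the members together.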
